A study of Homo sapiens with 12 samples.

Results

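Clustered histone genes are the genes of the HIST1, HIST2, HIST3 and HIST4 clusters, which encode the linker histone H1 and the core histones H2A, H2B, H3 and H4. They were taken as the protein-coding genes of GENCODE 29 whose symbol starts with HIST1H, HIST2H, HIST3H or HIST4H and that had at least 10 counts summed over the 12 libraries. Of 71 such annotated genes 51 were members, 4 of H1, 12 of H2A, 14 of H2B, 8 of H3 and 13 of H4, out of 20491 genes of the whole table that reached the same sum. The cells were OCI-AML2, an established line from an acute myeloid leukemia with a rearranged KMT2A (MLL) gene, treated for 6 days. The groups were sgUTX_2 with DMSO, sgUTX_4 with DMSO, sgLuc with DMSO, sgUTX_2 with 1 µM SGC0946, sgUTX_4 with 1 µM SGC0946 and sgLuc with 1 µM SGC0946, with 2 libraries each. The sgUTX guides are CRISPR guides against KDM6A, the gene of the H3K27 demethylase UTX, sgLuc is a guide against luciferase, and SGC0946 inhibits DOT1L, the histone H3K79 methyltransferase. All 12 libraries thus came from guide-carrying cells of 1 line. The labels do not say whether the sgUTX cells were pools or clones, nor whether the paired libraries of a group were grown apart. The p-values therefore measure only library-to-library spread, perhaps a technical one. Where both guides form 1 group, the difference between the guides enters that spread too.

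Most clustered histone genes are made in S phase, when new DNA must be packed into nucleosomes. Their messages are the only known animal mRNAs that end without a poly(A) tail: a stem-loop near the end of the message is bound by SLBP, and U7 snRNP guides the cleavage behind it. Transcription in S phase depends on NPAT, and after S phase the stem-loop messages are quickly degraded. Some of these genes are known to make polyadenylated messages as well, above all in cells that are differentiating or have stopped dividing.

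The members lay in 3 of the 4 clusters on GRCh38 (GENCODE 29). The HIST1 cluster held 41 members within chr6:26020490-27893843, a span of 1.873 Mb. The HIST2 cluster held 9 within chr1:149782689-149887916, and 1 member, HIST4H4, lay at chr12:14767999-14771131. The 20 genes that were not members included all of HIST3, and 14 of the 20 had 0 counts in all libraries. Of the 20, 7 share exonic bases with another gene, so that a low count there does not show a silent gene. Just outside the threshold stood HIST1H1T with 6 counts and HIST2H3C and HIST2H3A with 4 each, and just inside it HIST2H4B with 11, HIST1H3A with 14 and HIST2H2AA4 with 20. Of the 51 members 28 had at least 100 counts over the 12 libraries, and the 8 most abundant held 70.71% of all member counts, so most members were measured on few reads.

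The stem-loop is shown first, because messages that end just behind it lack the poly(A) tail by which a poly(A)-based library would select them. Coding transcripts of 24 members (47.1%) in GENCODE 29 contained the 16-base stem-loop, searched on the sense strand as the pattern GGNNNTTNNNANNNCC with a paired stem, against 120 of 19684 protein-coding genes (0.61%), which include the members. Models that end with the coding sequence, such as those of HIST1H1C and HIST1H2BK, stop before a stem-loop could occur. The 24 stem-loops had 5 distinct sequences, 1 of each of which follows, read 5′ to 3′ with the stem-loop in capitals and 5 bases on either side in lower case.
HIST1H2AC: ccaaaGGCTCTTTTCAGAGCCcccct
HIST1H2BD: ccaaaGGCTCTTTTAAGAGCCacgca
HIST1H3E: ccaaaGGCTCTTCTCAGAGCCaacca
HIST1H4H: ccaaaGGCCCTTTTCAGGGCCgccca
HIST1H4I: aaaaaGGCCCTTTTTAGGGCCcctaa
In that order the stem-loops lie at chr6:26124669-26124684 (plus strand), chr6:26158587-26158602 (plus), chr6:26225596-26225611 (plus), chr6:26285131-26285146 (minus) and chr6:27139654-27139669 (plus). The form in HIST1H2AC was shared by 12 members of H2A, H2B and H3, that in HIST1H4H by 5 H4 genes, that in HIST1H4I by 3 H4 genes and that in HIST1H2BD by 3 H2B genes, while that in HIST1H3E occurred in that member alone. In 16 of the 24 members a coding transcript ran more than 100 bases past the stem-loop, up to 1862 bases in HIST1H3E, which is the annotated form of a longer message.

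The promoters of the members also share elements that separate the classes. RefSeq promoters (GRCh38.p14, 250 bases before to 50 after the start) were matched for 42 members, and 3 known elements were searched on both strands: TATAAA (a form of the TATA box), CCAAT (the CCAAT box) and the octamer ATTTGCAT. The octamer was found in 8 of 9 matched H2A and 11 of 14 H2B promoters and in 0 of the matched H1, H3 and H4 promoters, against 1.8% of all 27305 promoters. CCAAT was present in all 31 matched promoters of H1, H2A, H2B and H3 but in 2 of 11 (18.2%) of H4, against 35.7% of all promoters, and TATAAA in 31 of 42 (73.8%) against 12%. H2A and H2B genes often lie head to head (11 such pairs among the 71 genes), so that 1 octamer can count for both genes of a pair. The 120 bases before the start are shown for 3 members to which the results below return, with the motifs found in capitals.
HIST1H2BK: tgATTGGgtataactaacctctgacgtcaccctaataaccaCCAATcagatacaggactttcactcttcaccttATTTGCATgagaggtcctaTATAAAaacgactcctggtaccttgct
HIST1H1C: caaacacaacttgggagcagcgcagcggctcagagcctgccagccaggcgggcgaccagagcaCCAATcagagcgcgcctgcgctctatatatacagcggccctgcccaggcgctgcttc
HIST1H4I: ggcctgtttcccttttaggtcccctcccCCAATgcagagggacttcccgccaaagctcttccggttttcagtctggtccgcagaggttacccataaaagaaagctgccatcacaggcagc
These stretches lie at chr6:27146859-27146978 (minus strand), chr6:26056471-26056590 (minus) and chr6:27139162-27139281 (plus). ATTGG is CCAAT read on the other strand. HIST1H2BK carries CCAAT, the octamer and TATAAA in this stretch, and HIST1H1C and HIST1H4I only CCAAT of the 3 motifs. A motif match is a description of letters, not a measured binding site.

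KDM6A, the targeted gene, stood at 14.8 and 15.7 CPM with sgUTX_2 and at 49.6 and 46.3 CPM with sgUTX_4, against 31.9 and 27.6 CPM with sgLuc, all in DMSO. CPM are library-scaled counts (edgeR's cpm with TMM factors). Against sgLuc, edgeR gave KDM6A a log2 fold change of -0.97 with sgUTX_2 (adjusted p = 7.62e-16) and of 0.69 with sgUTX_4 (adjusted p = 1.48e-10). The 2 guides thus moved the message in opposite directions, and frameshifts can leave a message in place, so sgUTX below means the libraries labelled with either guide. Total counts lay between 15480493 and 23262141 per library. The 8 myeloid markers summed to 1150 to 11576 CPM, mostly from PTPRC, LYZ, SPI1 and MPO, while CD68 had at most 0.17 CPM in any library and ITGAM 1.545 to 6.72 CPM in the DMSO libraries. The 4 erythroid markers summed to at most 0.11 CPM, and 3 of those 4 were at 0 in every library.

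The second sgLuc DMSO library stood apart from the first in its histone transcripts. The 51 members summed to 170 CPM in the first and 403 CPM in the second, while the 4 sgUTX DMSO libraries lay at 39.4, 32.8, 38.8 and 41.4 CPM. The median member was 2.60 log2 units higher in the second sgLuc DMSO library, with 36 of 51 members over 2-fold higher and 0 lower. Of 13304 genes with at least 20 counts in that pair, 45 were at least 4-fold higher in the second library, and 26 of these (57.8%) were members. HIST1H4E had 78 counts there and 1 in the first library, HIST1H1B had 274 and 11, and HIST1H3B had 289 and 15. The genes SNORA73B (76 and 8 counts), SCARNA5 (25 and 0) and MIR3687-1 (43 and 0), named for small RNAs, were also higher there. SCARNA5 and MIR3687-1 were picked after their values were seen. Whether reads at MIR3687-1 came from the small RNA itself was not tested. SNORD3A, the U3 RNA, went the other way, at 0.22 CPM in the second and 1.115 CPM in the first library.

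The same library did not stand apart in replication genes. The 22 S phase genes summed to 2432 CPM in the second and 2541 CPM in the first sgLuc DMSO library, and their median log2 ratio was -0.07. The 6 members known to have polyadenylated messages summed to 177 CPM in the second and 121 CPM in the first, and the other 45 members to 226 and 49.1 CPM. The excess was thus larger in members outside the polyadenylated list. A list of RNAs without a poly(A) tail other than histones, nearly all of it RN7SL2, summed to 194 and 201 CPM in the same 2 libraries. A lesser case was the second sgUTX_2 SGC0946 library, with 65.2 CPM of members against 45.3 to 45.5 CPM in the other 3 sgUTX SGC0946 libraries and a median member 0.66 log2 units above the first sgUTX_2 library. Neither the cause of these differences nor the share of poly(A)-less RNA in each library was tested, and results are given with and without the second sgLuc DMSO library where they rest on it.

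**Figure D1:**
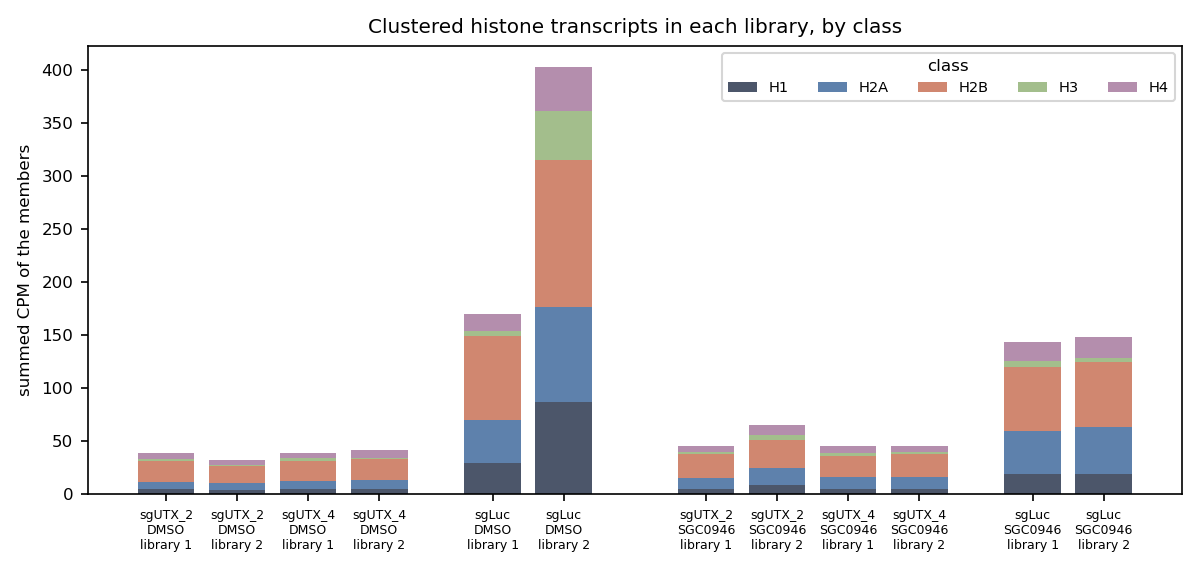
Summed CPM (vertical axis) of the 51 clustered histone genes in each of the 12 libraries (horizontal axis), stacked by class H1, H2A, H2B, H3 and H4. The 8 sgUTX libraries lie between 32.8 and 65.2 CPM, the sgLuc SGC0946 libraries at 143 and 148 CPM, and the sgLuc DMSO libraries at 170 and 403 CPM.

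Every sgUTX library held less clustered histone RNA than every sgLuc library. The members summed to 38.1 ± 3.72 CPM in sgUTX DMSO libraries (SD, n = 4), against 170 and 403 CPM in the sgLuc DMSO libraries. With SGC0946 they summed to 50.4 ± 9.87 CPM in sgUTX libraries (SD, n = 4), against 143 and 148 CPM with sgLuc. In bulk RNA, fewer cells in S phase and less histone RNA per cell cannot be told apart, and the part of poly(A)-less RNA capture was not tested. H2B was the largest class, at 18.7 ± 1.73 CPM in sgUTX DMSO and 22.8 ± 2.72 CPM in sgUTX SGC0946 libraries (SD, n = 4 each), against 79.5 and 138.7 CPM in sgLuc DMSO and 60.2 and 60.8 CPM in sgLuc SGC0946 libraries. H3 was the smallest class except in the second sgLuc DMSO library, where H4 summed to less (41.9 CPM). H3 stood at 1.03 to 2.05 CPM in sgUTX DMSO and 1.74 to 4.95 CPM in sgUTX SGC0946 libraries. With sgLuc it stood at 4.21 and 45.7 CPM in DMSO and at 5.84 and 3.85 CPM in SGC0946 libraries. Only in this class did the SGC0946 groups overlap. Per kilobase of annotated exon and over all libraries, HIST1H2BK was the most abundant member (56.6 CPM per kb), followed by HIST1H1C (18.6), HIST1H2AC (7.44), HIST1H2BD (7.0) and HIST1H3B (5.77). These levels depend on the models, since those of HIST1H2BK, HIST1H1C and HIST1H3B are of coding length.

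**Figure D2:**
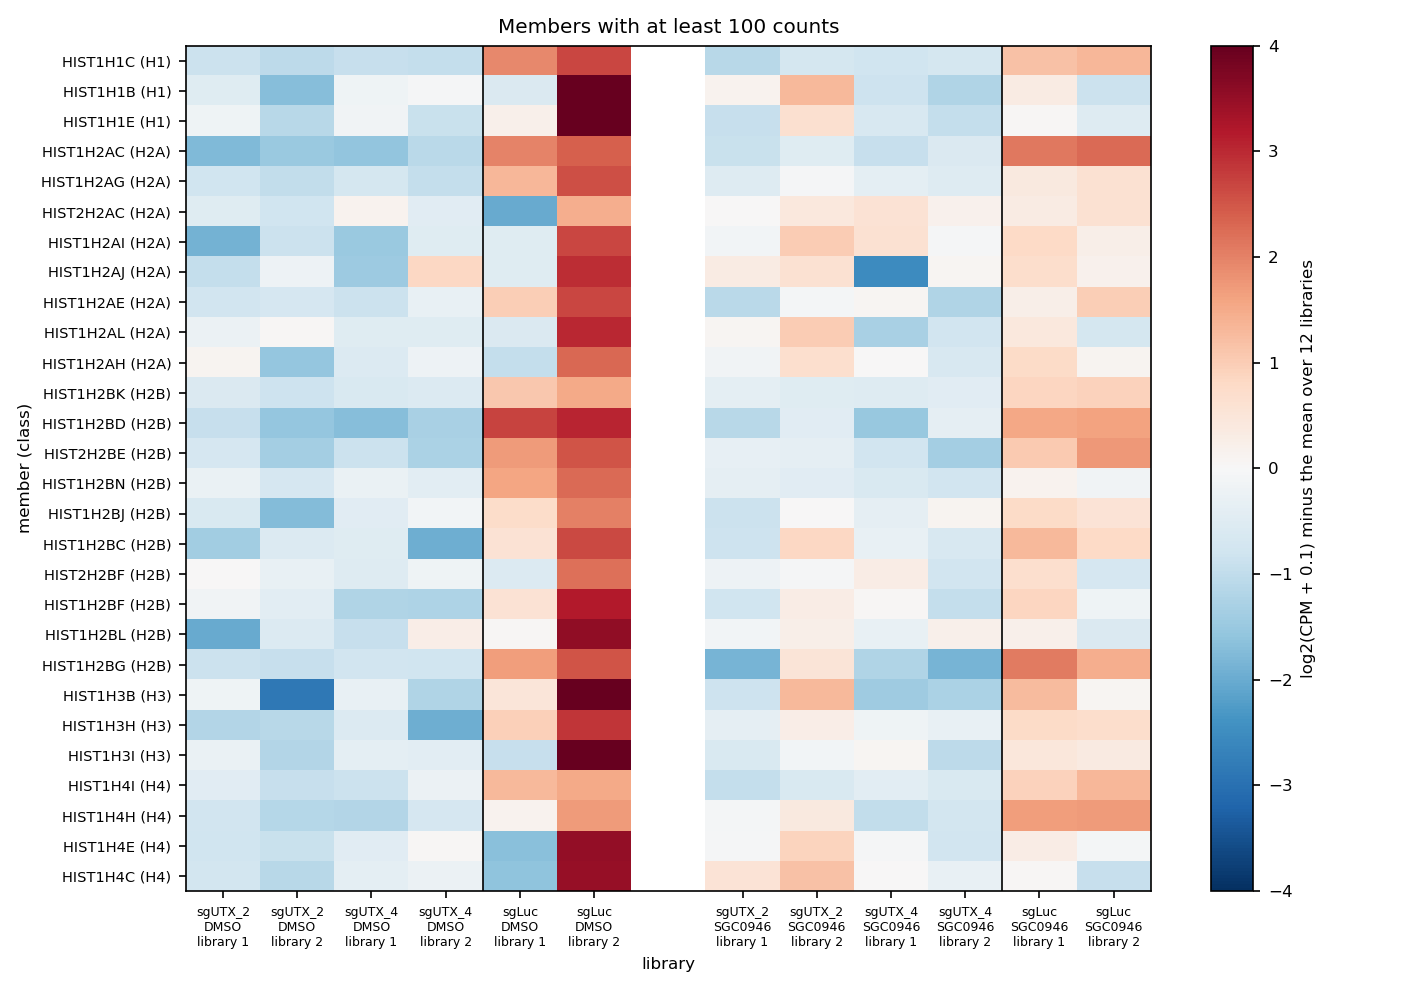
Log2(CPM + 0.1) of the 28 members with at least 100 counts (rows, class in brackets), minus the row mean over the 12 libraries, by library (columns), with colours ending at -4 and 4. The second sgLuc DMSO library is the highest in all 28 rows, and HIST1H1C, HIST1H2AC, HIST1H2BD, HIST1H2BK and HIST1H4I are high in all 4 sgLuc libraries.

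The first comparison asks how the sgUTX cells differed from sgLuc cells in DMSO. With all libraries 37 of 51 members (72.5%) were lower and 0 higher in sgUTX, where 23.8% of all 20491 genes tested were called lower and 21.8% higher (edgeR quasi-likelihood test, adjusted p under 0.05). By an unadjusted p under 0.05, 0 members were higher too, and DESeq2 also called 0 higher. The median log2 fold change of the members was -3.04, against 0.02 for all genes. Without the second sgLuc DMSO library 13 of 50 members (26%) were lower and 1 higher, against 20.1% and 18.0% of all genes, and the median was -0.64. In that fit the sgLuc DMSO group is 1 library, assumed to vary like the other groups. The members lower in both fits were the same 13: HIST1H1C, HIST1H2AC, HIST1H2AE, HIST1H2AG, HIST1H2BC, HIST1H2BD, HIST1H2BG, HIST1H2BJ, HIST1H2BK, HIST1H2BN, HIST1H3H, HIST1H4I and HIST2H2BE. The other members called with all libraries were not called without the second sgLuc DMSO library. Calls can be lost there also because fewer libraries are left. HIST1H4K, for example, had 6 and 8 counts in the sgLuc DMSO libraries, against 1, 3, 2 and 2 in the sgUTX DMSO libraries.

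Calls in DMSO came from every class with all libraries. Lower were 4 of 4 H1 members, 8 of 12 of H2A, 12 of 14 of H2B, 5 of 8 of H3 and 8 of 13 of H4. Without the second sgLuc library these were 1 of 4, 3 of 12, 7 of 14, 1 of 8 and 1 of 12, so that H1 had the largest share in the first fit and H2B in the second. By position, 34 of 41 HIST1 members and 3 of 9 HIST2 members were lower with all libraries, and 12 of 41 and 1 of 8 without the second. HIST4H4 was called in neither fit. Of members whose annotated message runs over 100 bases past the stem-loop, 11 of 16 were lower with all libraries and 7 of 15 without the second, with medians of -2.50 and -1.51. Of the 27 members with no stem-loop in their model, 21 were lower with all libraries and 4 without, with medians of -3.04 and 0.02. No difference between these groups of members was tested.

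**Figure D3:**
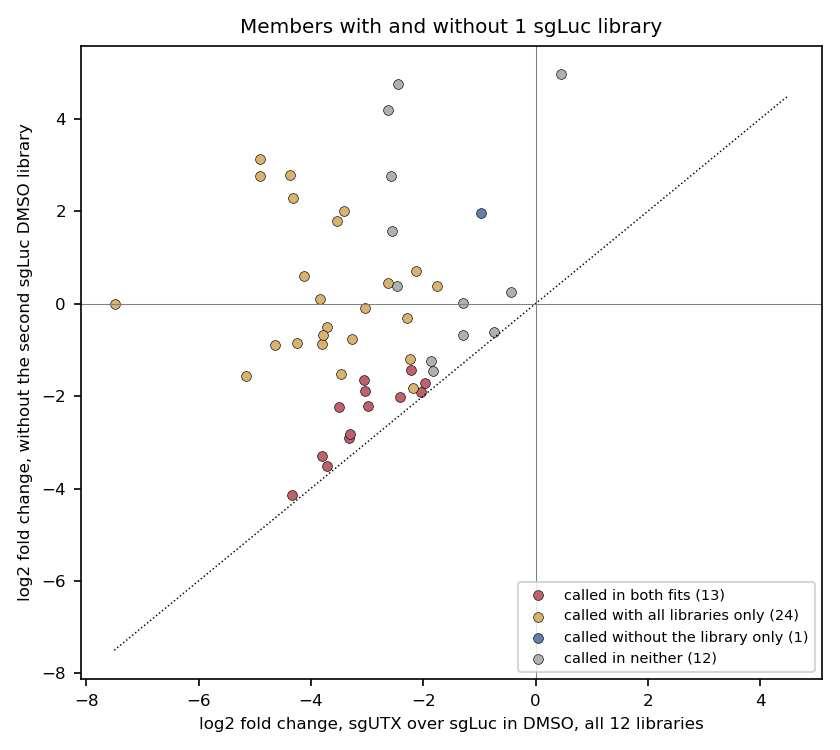
Log2 fold change of each member in sgUTX over sgLuc in DMSO with all 12 libraries (horizontal axis) and without the second sgLuc DMSO library (vertical axis), for the 50 members fitted in both, coloured by call, with a dotted line of equal values. Most of the 24 members called only with all libraries lie farther above the line than any of the 13 called in both fits.

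Of the 6 members known to have polyadenylated messages, all were lower in sgUTX in DMSO with all libraries, and 5 without the second sgLuc library. HIST1H1C (ENSG00000187837, chr6:26055787-26056428), which encodes the linker histone H1.2, had 4.0, 3.49, 3.81 and 3.79 CPM in sgUTX DMSO libraries, against 28.4 and 47.7 CPM in sgLuc. The groups did not overlap, and the lowest sgLuc value was several times the highest sgUTX value. Its log2 fold change was -3.33 (SE 0.16, adjusted p = 1.55e-17), and -2.91 (adjusted p = 1.71e-15) without the second sgLuc library. HIST1H2AC (ENSG00000180573, chr6:26124145-26139116), an H2A gene, had 1.88, 2.30, 2.15 and 3.08 CPM in sgUTX, against 26.8 and 35.2 CPM in sgLuc. Here the 2 sgLuc libraries differed less from each other, and the log2 fold changes of HIST1H2AC were -3.72 with and -3.51 without the second (adjusted p = 8.51e-22 and 1.46e-16).

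The H2B genes of the same list were lower by different amounts. HIST1H2BD (ENSG00000158373, chr6:26158146-26171349) had 1.48, 0.93, 0.83 and 1.14 CPM in sgUTX DMSO libraries, against 19.5 and 25.02 CPM in sgLuc, a log2 ratio of -4.33 (SE 0.22, adjusted p = 1.75e-18), or -4.14 without the second sgLuc library. HIST1H2BK (ENSG00000197903, chr6:27146418-27146798), the most abundant member, had 12.1, 10.2, 11.99 and 12.4 CPM in sgUTX, against 38.3 and 52.8 CPM in sgLuc, a log2 fold change of -1.96 (SE 0.11), or -1.71 without the second. HIST1H2BK had the highest level of all members in every sgUTX library, and 28.4% of its 100-base windows also occur in H2BFS, so that reads may be split between them. HIST2H2BE (ENSG00000184678, chr1:149884459-149886652), the HIST2 gene called lower in both fits, had 1.29, 0.75, 1.10 and 0.81 CPM in sgUTX, against 6.999 and 12.6 CPM in sgLuc, a log2 fold change of -3.30 (SE 0.28), or -2.82 without the second. HIST1H4H (ENSG00000158406, chr6:26277609-26285638), an H4 gene, was the exception, at 0.39 to 0.60 CPM in sgUTX against 1.11 and 3.51 CPM in sgLuc. It was called with all libraries (-2.23, adjusted p = 4.4e-05) and missed the threshold without the second (-1.20, adjusted p = 0.0885).

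**Figure D4:**
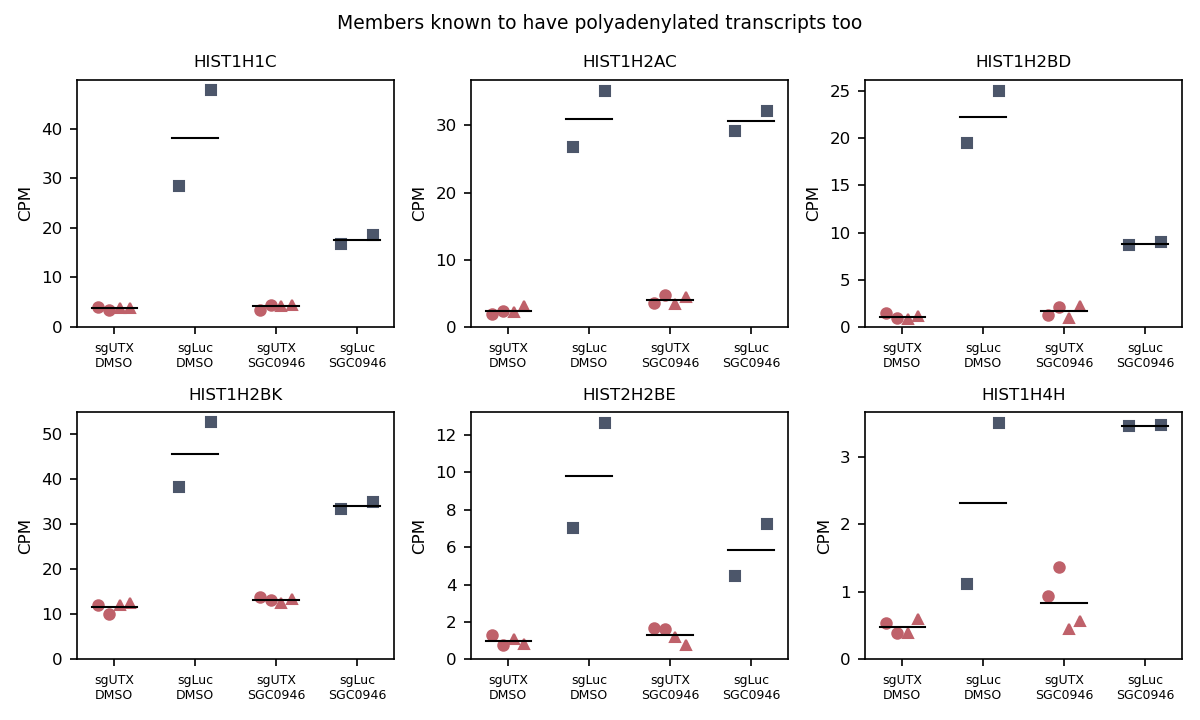
CPM (vertical axes, from 0) of the 6 members known to have polyadenylated messages in each library, by group. Circles are sgUTX_2, triangles sgUTX_4 and squares sgLuc, and lines are group means. All sgUTX values lie below all sgLuc values of the same treatment.

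Outside that list 8 members were lower in both fits, of which 4 are described here. HIST1H4I (ENSG00000276180, chr6:27138588-27139881) had 4.10, 2.91, 3.04 and 4.82 CPM in sgUTX DMSO libraries, against 14.1 and 16.4 CPM in sgLuc. The 2 sgLuc libraries differed little from each other, and the fold change of HIST1H4I was -2.04 (SE 0.18, adjusted p = 2.44e-12) with and -1.92 without the second. HIST1H2AG had 2.08 to 2.54 CPM in sgUTX, against 10.8 and 25.7 CPM in sgLuc (-2.97, SE 0.26, and -2.22 without the second library). HIST1H2BN had 1.32 to 1.78 CPM in sgUTX, against 6.57 and 10.8 CPM in sgLuc (-2.42, SE 0.24, and -2.02), and shares 7.25% of its exonic bases with HIST1H2AK and HIST1H2AL. HIST1H3H was the only H3 gene lower in both fits, at 0.27 to 0.88 CPM in sgUTX, against 2.73 and 10.4 CPM in sgLuc (-3.50, SE 0.44, and -2.25).

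Other members of H1, H3 and H4 were high in 1 sgLuc library alone. HIST1H1B, the gene of H1.5, had 0.74, 0.26, 0.94 and 1.03 CPM in sgUTX DMSO libraries, against 0.68 and 20.5 CPM in sgLuc. The first sgLuc library lay inside the sgUTX range, and the log2 fold change of HIST1H1B was -3.83 (SE 1.12, adjusted p = 0.0217) with all libraries and 0.10 (adjusted p = 0.963) without the second. HIST1H1E, the gene of H1.4, had 0.26 to 0.61 CPM in sgUTX, against 0.81 and 16.6 CPM in sgLuc (-4.25, and -0.84 with adjusted p = 0.388 without the second). HIST1H3B had 0 to 0.54 CPM in sgUTX, against 0.93 and 21.6 CPM in sgLuc (-5.16, and -1.57 with adjusted p = 0.452). HIST1H3I and HIST1H4E had 0.12 and 0.06 CPM in the first and 6.87 and 5.83 CPM in the second sgLuc library, and their fold changes of -4.13 and -3.40 became 0.60 and 2.01, neither called. In all, 24 of 51 members (47.1%) had every sgUTX value below every sgLuc value in DMSO, against 28.9% of all genes tested.

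In 7 head-to-head pairs both genes are members. In HIST1H2BC and HIST1H2AC (218 bases between the annotated genes), HIST1H2BG and HIST1H2AE (282) and HIST1H2BJ and HIST1H2AG (291), both genes were lower in sgUTX in both fits, HIST1H2BC by -3.06 and -1.66, HIST1H2BG by -3.79 and -3.30, and HIST1H2BJ by -2.21 and -1.43 on the log2 scale. In HIST1H2BK and HIST1H2AH (330 bases) the H2B gene was lower in both fits and HIST1H2AH with all libraries only. HIST1H2BL and HIST1H2AI (267 bases) were both lower with all libraries only (-3.81 and -3.26, and -0.88 and -0.76 without the second sgLuc library). HIST1H2AJ and HIST1H2BM (303 bases) were called in neither fit (-2.47 and -2.45 with all libraries). The pair HIST2H2BE and HIST2H2AC (322 bases) split: HIST2H2BE was lower, and HIST2H2AC was the 1 member called higher without the second sgLuc library (1.96, adjusted p = 0.0241). HIST2H2AC had 0.71 to 1.44 CPM in sgUTX DMSO libraries, against 0.25 and 3.73 CPM in sgLuc, the first of these from 4 counts, and with all libraries it was not called (-0.96, adjusted p = 0.258). It shares 17.2% of its 100-base windows with HIST2H2AA3 and HIST2H2AA4.

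Each guide was also set against sgLuc by itself. In DMSO 31 members were lower with sgUTX_2 (23.5% of all genes) and 31 with sgUTX_4 (22.7%). These were 13 (20.9%) and 12 (20.3%) without the second sgLuc DMSO library. Both comparisons use the same sgLuc libraries, so their likeness is no independent check. HIST1H2BD changed by -4.21 with sgUTX_2 and -4.49 with sgUTX_4, and HIST1H2BK by -2.03 and -1.89. Between the guides themselves 0 members differed in DMSO (3.08% of all genes did) and 0 with SGC0946 (2.83%) by edgeR's quasi-likelihood test. By an unadjusted p under 0.05 these counts were 0 and 7, the 7 all lower with sgUTX_4, and another tool was not run on this contrast. KDM6A, by contrast, differed between the guides by 1.65 on the log2 scale in DMSO.

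The second comparison sets sgUTX against sgLuc in SGC0946, where the members' sums in the 2 sgLuc libraries were close (143 and 148 CPM). Single members still differed between them, the median member being 0.46 log2 units lower in the second, with 15 of 51 over 2-fold lower and 1 higher, all outside the polyadenylated list. Of 51 members 10 (19.6%) were lower in sgUTX, near the 21.4% of all genes, and 0 were higher, where 21.1% of all genes were (edgeR). By an unadjusted p under 0.05 and by DESeq2 0 members were higher as well. The median log2 fold change was -0.55, against 0.04 for all genes. The 10 were HIST1H1C, HIST1H2AC, HIST1H2AG, HIST1H2BD, HIST1H2BG, HIST1H2BK, HIST1H3E, HIST1H4H, HIST1H4I and HIST2H2BE, which include all 6 of the polyadenylated list but 4 of the 45 others. The same 10 and 5 more were called without the second sgUTX_2 SGC0946 and the second sgLuc DMSO library, where 21.1% of all genes were lower. By class they were 1 of 4 in H1, 2 of 12 in H2A, 4 of 14 in H2B, 1 of 8 in H3 and 2 of 13 in H4. Of these 10, 8 were also among the 13 lower in DMSO in both fits. The 2 comparisons share no library, but both set cells with the same guides, of 1 line, against each other in 1 fit. Their overlap is therefore no independent check.

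HIST1H2AC had 3.53, 4.70, 3.47 and 4.46 CPM in sgUTX SGC0946 libraries, against 29.2 and 32.2 CPM in sgLuc, a log2 ratio of -2.92 (SE 0.14, adjusted p = 7.01e-20). HIST1H2BD had 1.30, 2.10, 0.97 and 2.25 CPM in sgUTX, against 8.63 and 9.03 CPM in sgLuc (-2.39, SE 0.22, adjusted p = 1.92e-11). Both genes kept groups that did not overlap, and for each the log2 ratio was smaller in size than in DMSO. HIST1H1C had 3.35, 4.498, 4.21 and 4.46 CPM in sgUTX, against 16.7 and 18.6 CPM in sgLuc (-2.09, SE 0.16). HIST2H2BE stood at 0.77 to 1.65 CPM in sgUTX, against 4.47 and 7.21 CPM in sgLuc (-2.14, SE 0.28), and HIST1H4H at 0.45 to 1.36 CPM, against 3.45 and 3.47 CPM (-2.01, SE 0.37). HIST1H4I had 2.86 to 4.21 CPM in sgUTX, against 10.7 and 14.3 CPM in sgLuc (-1.81, SE 0.18), and HIST1H2BK 12.6 to 13.8 CPM, against 33.5 and 34.9 CPM (-1.37, SE 0.11). HIST1H3E was called on at most 2 counts per sgUTX library, at 0 to 0.08 CPM against 0.42 and 0.17 CPM in sgLuc.

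The members named above as high in the second sgLuc DMSO library alone were not called here with all libraries. HIST1H1B had 0.41 to 2.77 CPM in sgUTX SGC0946 libraries, against 1.37 and 0.55 CPM in sgLuc (0.44, SE 1.44, adjusted p = 0.845). HIST1H3B had 0.17 to 1.69 CPM, against 1.67 and 0.66 CPM, and HIST1H4E 0.20 to 0.87 CPM, against 0.54 and 0.39 CPM, neither called. Without both libraries that stood apart HIST1H3B was called lower (-2.28, adjusted p = 0.0139). With all libraries the standard errors of these members were 1.27 to 1.53 log2 units, so that a missing call does not show equal levels. All groups share the estimate of a gene's spread, so the unlike sgLuc DMSO libraries enter these errors too. With sgUTX_2 alone 9 members were lower (21.1% of all genes), and with sgUTX_4 alone 9 (20.9%), again against the same sgLuc libraries. HIST1H2AB was called higher with sgUTX_2, at 0.13 and 0.41 CPM with sgUTX_2 against 0 counts in both sgLuc libraries.

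The third comparison asks what DOT1L inhibition did in each background. In sgLuc cells 11 of 51 members (21.6%) were lower with SGC0946 and 0 higher, where 17.4% of all genes were lower and 18.2% higher. By an unadjusted p under 0.05 and by DESeq2 0 were higher too. Without the second DMSO library the counts were 4 lower (14.1% of all genes) and 2 higher (14.0%), and the median was 0.48, against -1.49 with all libraries. The 4 lower in both fits were HIST1H1C, HIST1H2AG, HIST1H2BD and HIST1H2BN. HIST1H2BD stood at 8.63 and 9.03 CPM with SGC0946, against 19.5 and 25.02 CPM with DMSO (-1.33, SE 0.21, and -1.14 without the second DMSO library). HIST1H2BN stood at 2.38 and 1.93 CPM, against 6.57 and 10.8 CPM (-2.0, SE 0.29, and -1.6), and HIST1H1C at 16.7 and 18.6 CPM, against 28.4 and 47.7 CPM (-1.10, SE 0.17, and -0.69). HIST1H2AC differed from them, at 29.2 and 32.2 CPM with SGC0946 against 26.8 and 35.2 CPM with DMSO, groups that overlapped (-0.01, adjusted p = 0.977). HIST1H4H and HIST2H2AC were the 2 called higher without the second DMSO library (1.63 and 2.88, adjusted p = 0.0193 and 0.00147), on 18 and 4 counts in the DMSO library that was left.

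In sgUTX cells HIST1H2AC was the 1 member that rose with SGC0946 and 0 fell, where 12.8% of all genes rose and 11.7% fell. By an unadjusted p under 0.05 5 rose and 0 fell, and DESeq2 called 3 and 0. HIST1H2AC had 3.53, 4.70, 3.47 and 4.46 CPM with SGC0946, against 1.88, 2.30, 2.15 and 3.08 CPM with DMSO, groups that did not overlap (0.79, SE 0.16, adjusted p = 0.000245). The members' median was 0.65. Their 50.4 ± 9.87 CPM with SGC0946 and 38.1 ± 3.72 CPM with DMSO (SD, n = 4 each) include the second sgUTX_2 SGC0946 library, and without both libraries that stood apart 2 members rose (11.6% of all genes) and the median was 0.28. The count was 4 without the second sgLuc DMSO library alone and 7 without the first, although this contrast holds no sgLuc library, since all groups share 1 estimate of the spread.

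The response to SGC0946 was more positive in sgUTX than in sgLuc cells for 10 members (19.6%) and more negative for 0, where 13.0% and 11.8% of all genes were called. By an unadjusted p under 0.05 and by DESeq2 0 were more negative. Without the second sgLuc DMSO library the 4 that remained were HIST1H1C (0.81, adjusted p = 0.0105), HIST1H2AG (1.34, 0.00189), HIST1H2BD (1.74, 0.000795) and HIST1H2BN (1.45, 0.0103), and HIST2H2AC was called the other way (-2.15, 0.0484), where 9.87% and 9.21% of all genes were called. HIST1H1C, HIST1H2AG, HIST1H2BD and HIST1H2BN were also the members lower with SGC0946 in sgLuc cells in both fits. That response enters the difference with its sign reversed, so the likeness is no independent check. In sgUTX cells none of the 4 was called, by edgeR or by DESeq2. HIST1H2BN had 1.44 ± 0.19 CPM with SGC0946 and 1.61 ± 0.21 CPM with DMSO (SD, n = 4 each), while HIST1H2AG had 2.92 to 4.13 CPM with SGC0946, against 2.08 to 2.54 CPM with DMSO, groups that did not overlap (0.53, SE 0.26, edgeR adjusted p = 0.166). HIST1H2BD had 0.97 to 2.25 CPM with SGC0946, against 0.83 to 1.48 CPM with DMSO (0.61, SE 0.25, edgeR adjusted p = 0.0726).

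Genes that regulate, process and chaperone histones were then read beside the members, by lists chosen for their known roles. The 22 S phase genes, which encode replication factors and nucleotide enzymes, summed to 4422 to 4761 CPM in sgUTX DMSO libraries, against 2541 and 2432 CPM in sgLuc. Of them 20 were higher and 0 lower in sgUTX in DMSO, where 21.8% and 23.8% of all genes were. At an unadjusted p under 0.05 and by DESeq2 0 were lower too. Their median log2 fold change was 1.16. With SGC0946 16 were higher and 1 lower (median 0.51), where 21.1% and 21.4% of all genes were. The S phase medians had the opposite sign to those of the histone members. The latter were -3.04 in DMSO (-0.64 without the second sgLuc library) and -0.55 with SGC0946. With all libraries the share of members called lower with SGC0946 was near that of all genes. CCNE2, a cyclin of S phase entry, had 27.7, 28.8, 21.3 and 21.5 CPM in sgUTX DMSO libraries, against 4.46 and 3.73 CPM in sgLuc, a log2 fold change of 2.59. The other cyclin E gene, CCNE1, changed by 1.93, the transcription factors E2F1 and E2F2 by 1.79 and 1.68, and CDC45, a part of the replicative helicase, by 1.78, all called. Without the second sgLuc DMSO library 20 of 22 were still higher.

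Factors of histone message synthesis, processing and turnover were mostly higher in sgUTX too. Of 21 processing and turnover genes 14 were higher and 1 lower in DMSO (median 0.46), and 15 higher and 1 lower with SGC0946 (0.38). Of all genes 21.8% were higher and 23.8% lower in DMSO, and 21.1% and 21.4% with SGC0946. SLBP, which binds the stem-loop shown above, had 178, 161, 153 and 163 CPM in sgUTX DMSO libraries, against 80.3 and 83.3 CPM in sgLuc (1.00, SE 0.07, adjusted p = 2.74e-15). The 2 sgLuc libraries were close in SLBP although they differed in histone messages. NPAT, the S phase activator of histone genes, had 26.2, 31.2, 22.99 and 25.8 CPM in sgUTX, against 14.4 and 13.1 CPM in sgLuc (0.95, SE 0.11), and CASP8AP2 (FLASH), which acts in histone 3′ end cleavage, changed by 1.40 (SE 0.08). LSM11, a protein of U7 snRNP, changed by 0.93 and the cleavage factor CSTF2 by 1.16. MIF4GD (SLIP1), a partner of SLBP in histone message translation, was the 1 lower, at -1.14. The turnover genes ERI1, UPF1 and LSM1 averaged 67.05, 149.8 and 29.8 CPM in sgUTX DMSO libraries, against 39.8, 104.1 and 22 CPM in sgLuc. XRN1, also a turnover gene, went the other way by mean (74.4 against 79.7 CPM). These turnover genes were picked after their values were seen. With SGC0946 the changes were 0.40 for SLBP, 0.38 for NPAT and 0.32 for CASP8AP2.

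Chaperones and replication-independent histones gave different pictures. Of 20 chaperone and assembly genes 15 were higher and 2 lower in sgUTX in DMSO (median 0.40), and 11 higher and 1 lower with SGC0946 (0.23). Of all genes 21.8% were higher and 23.8% lower in DMSO, and 21.1% and 21.4% with SGC0946. The subunits of CAF-1, which loads H3 and H4 on new DNA, changed in DMSO by 1.24 (CHAF1A) and 1.28 (CHAF1B), ASF1B, a carrier of H3 and H4, by 1.08, the H3.3 chaperone HIRA by 1.13 and NAP1L1, a carrier of H2A and H2B, by -0.87. Most of the 11 tested replication-independent histone genes have only polyadenylated messages (H2AFX also makes a stem-loop message). Of these 11, 3 were higher and 5 lower in DMSO (median -0.26), where 21.8% and 23.8% of all genes were. H2AFZ, the gene of H2A.Z, had 736, 656, 788 and 741 CPM in sgUTX DMSO libraries, against 366 and 352 CPM in sgLuc (1.03, SE 0.07). H2AFX changed by 0.53 and H2AFV by 0.28, while H2AFJ changed by -0.59 and CENPA, the gene of the centromeric H3 variant, by -0.44. With library size alone as the scaling 4 were higher and 1 lower, so the direction of this list depended on the scaling. All 12 genes of the list together summed to 2406 to 2666 CPM in sgUTX DMSO libraries, against 2342 and 2328 CPM in sgLuc.

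**Figure D5:**
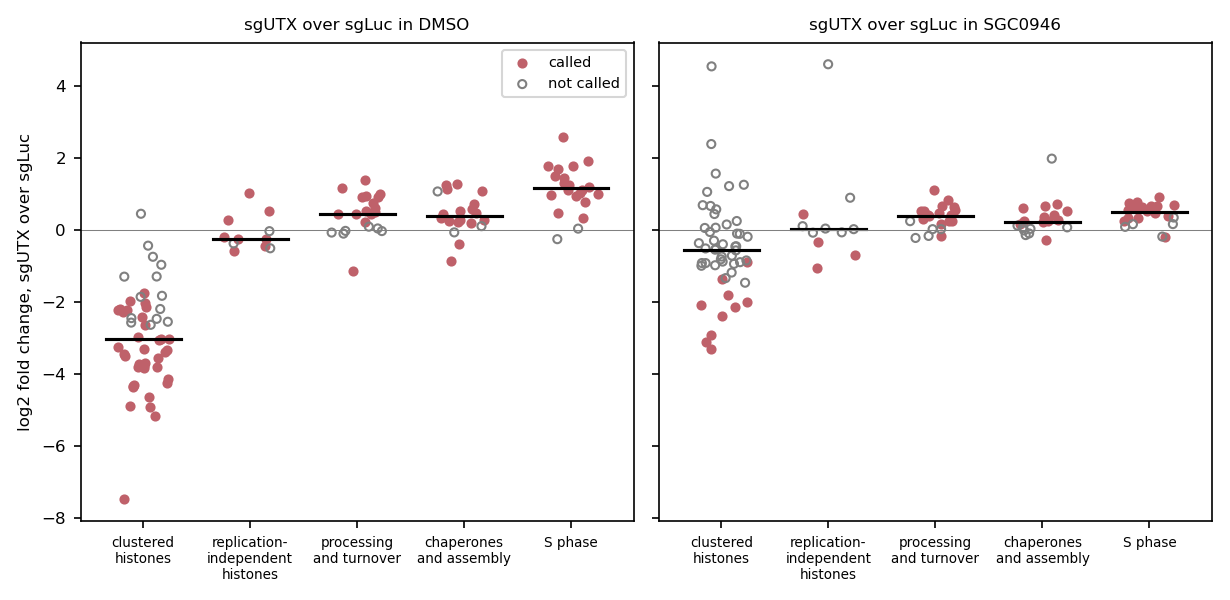
Log2 fold change in sgUTX over sgLuc (vertical axis) in DMSO (left) and SGC0946 (right) for the clustered histone members and 4 gene lists (horizontal axis), each point a gene, filled where called and open where not, with lines at the medians. The histone medians are -3.04 and -0.55, and the S phase medians 1.16 and 0.51.

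With SGC0946 in sgLuc cells 16 of 22 S phase genes were higher and 1 lower (median 0.62), where 18.2% and 17.4% of all genes were. SLBP changed there by 0.35 and NPAT by 0.47, while HIST1H1C, HIST1H2AG, HIST1H2BD and HIST1H2BN were lower. In sgUTX cells 10 S phase genes were lower and 0 higher (median -0.17), where 11.7% and 12.8% of all genes were. At an unadjusted p under 0.05 1 was higher and by DESeq2 0, and SLBP changed by -0.24. Of the poly(A)-less RNAs other than histones, 4 of 14 had at least 10 counts. In DMSO 2 of these were lower and 0 higher in sgUTX, where 23.8% and 21.8% of all genes were. With SGC0946 1 was lower and 0 higher, where 21.4% and 21.1% of all genes were. RN7SL2, the RNA of the signal recognition particle, had 61.6 to 123 CPM in sgUTX DMSO libraries, against 199 and 188 CPM in sgLuc (-1.17, adjusted p = 0.00656), and was also lower in sgUTX with SGC0946 (-0.95, adjusted p = 0.0198). The part of poly(A)-less RNA capture in the histone differences was not tested. The 6 members with known polyadenylated messages summed to 20.4 ± 1.70 CPM in sgUTX DMSO libraries (SD, n = 4), against 121 and 177 CPM in sgLuc, and the other 45 to 17.7 ± 2.07 CPM, against 49.1 and 226 CPM. The myeloid markers summed to 4348 to 6306 CPM in sgUTX SGC0946 libraries, against 11576 and 11430 CPM in sgLuc, and to 1150 to 1507 CPM in sgUTX DMSO libraries, against 1632 and 1473 CPM in sgLuc, and their part in the histone levels was not tested either. Low levels of other lineages' markers also moved with the groups. The 4 megakaryocyte markers, with PF4 and PPBP at 0 in every library, summed to 6.08 to 9.0 CPM in sgUTX DMSO libraries, against 16.9 and 19.7 CPM in sgLuc, and to 4.49 to 7.64 CPM in sgUTX SGC0946 libraries, against 12.98 and 13.21 CPM in sgLuc. The 4 T cell markers, nearly all CD3D, summed to 0 to 0.18 CPM in sgUTX DMSO libraries, against 2.17 and 1.27 CPM in sgLuc, and to 0.17 to 0.68 CPM in sgUTX SGC0946 libraries, against 8.93 and 8.48 CPM in sgLuc. The 4 B cell markers, with MS4A1 at 0 in every library, summed to 1.77 to 2.65 CPM in sgUTX DMSO libraries, against 8.55 and 6.80 CPM in sgLuc, and to 3.75 to 4.56 CPM in sgUTX SGC0946 libraries, against 8.22 and 6.22 CPM in sgLuc. The 4 epithelial or adherent markers went with the treatment instead, at 2.01 to 7.55 CPM in sgUTX SGC0946 libraries, against 0.26 to 1.46 CPM in sgUTX DMSO libraries, and at 7.56 and 6.72 CPM in sgLuc SGC0946 libraries, against 1.18 and 0.60 CPM in sgLuc DMSO libraries. The 7.55 CPM was that of the second sgUTX_2 SGC0946 library, whose partner had 2.01 CPM. The part of these markers in the histone differences was not tested.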

How the data were processed

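The authors deposited raw, whole-number counts per gene for 58735 identifiers in 12 RNA-seq libraries. Per the labels' protocols total RNA was made into libraries with read pairs of 150 bases; whether poly(A) RNA was selected, which program counted, whether it used strand and where it put reads of several genes is not given in the sources used here. The submitters' processing notes name hg19 and the aligner STAR 2.5.1b, but the identifiers are exactly those of GENCODE 29 (GRCh38). The build behind the counts is therefore uncertain, and coordinates are those of GENCODE 29. Histone genes are near-identical copies: 12 members share at least 10% of their 100-base windows with another gene, and 8 share exonic bases with one, so their single values are uncertain.

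The counts of the 20491 genes with at least 10 counts summed were fitted with edgeR 4.0.16 (R 4.3.3; TMM, robust quasi-likelihood F-tests, two-sided) in 4 groups (sgUTX or sgLuc, DMSO or SGC0946), both guides as replicates, with 8 residual degrees of freedom and a biological coefficient of variation of 0.078. Guides were compared in a second fit of 6 groups with 6 degrees of freedom and 0.0574. P-values were adjusted over all genes tested (Benjamini-Hochberg) and called under 0.05. Both libraries of every group differed beyond sampling noise (chi-square per gene 2.85 to 6.29). The fits were tested on simulated counts. Alternatives were other scalings, filters, DESeq2 1.42.0, guides averaged in 6 groups, a replicate block and leaving out each library; leaving out both libraries that stood apart, and leaving out the second sgLuc DMSO library for each guide by itself, were chosen after seeing the data.

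The members and lists were chosen with earlier results of these data known, so their counts are descriptions. Named members were, by rule, the 3 with the highest mean CPM of each class, the 5 called with the largest positive and negative change in each contrast among those with a mean of at least 1 CPM, the 6 with known polyadenylated messages and the 3 on either side of the threshold; of each list, the 5 called genes with the largest change in a contrast. Other members are named where a count is listed out or in head-to-head pairs, after their values were seen. Stem-loops were searched in coding transcripts of GENCODE 29, and promoters come from RefSeq.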

Additional observations from a re-analysis of the deposited data

Results flagged for a closer look

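In groups of 4 libraries, a value was singled out where its gap to the nearest other, over the range, was above Dixon's 95% critical value, which chance gives in about 1 of 20 groups; 44 groups were examined. In sgUTX DMSO libraries the second sgUTX_2 library was low in the summed CPM of H1 (4.02) and of H2B (16.1). In sgUTX SGC0946 libraries the second sgUTX_2 library was high in the sum of all members (65.2 CPM), of H1 (8.62), of H2A (15.8) and of H3 (4.95), and in HIST1H1E (1.11) and HIST1H3B (1.69). These sums overlap in their genes.

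The response to SGC0946 differed between sgUTX and sgLuc cells, by edgeR's test of the difference, for HIST1H1C (1.23, adjusted p = 0.000152), HIST1H2AC (0.80, 0.00567), HIST1H2AG (2.10, 0.00056), HIST1H2BK (0.59, 0.00371), HIST1H2BD (1.94, 1.99e-05), HIST2H2BE (1.16, 0.0386), HIST1H3H (2.61, 0.00507) and HIST1H2BN (1.85, 0.000204). In all 8 the response was more positive in sgUTX cells. Without the second sgLuc DMSO library HIST1H1C, HIST1H2AG, HIST1H2BD and HIST1H2BN were still called.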

How the results depend on the processing

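The 10 members lower in sgUTX with SGC0946 numbered 8 to 14 when single libraries were left out, and 15 without both libraries that stood apart. Leaving out single libraries (the lone sample of a group then being assumed to vary like the others) gave 13 to 42 members lower and 0 to 1 higher in sgUTX in DMSO, 4 to 34 lower and 0 to 2 higher with SGC0946 in sgLuc cells, 1 to 7 higher with SGC0946 in sgUTX cells, 4 to 34 with a more positive and 0 to 1 with a more negative difference, and 0 to 2 differing between guides with SGC0946. The last and the count of higher members in sgUTX cells hold no sgLuc library, and moved most (to 2, and to 4 or 7) without a sgLuc DMSO library, which enters the shared spread. With sgUTX_2 13 and with sgUTX_4 12 members were lower in DMSO without the second sgLuc DMSO library, against 31 each. In the comparisons with sgLuc DMSO the low ends of 13 and 4 and the 2 higher came without the second sgLuc DMSO library, the high ends of 42 and 34 without the first. Without both libraries that stood apart the counts were 13 lower and 1 higher in DMSO, 4 lower and 2 higher in sgLuc cells, 2 higher in sgUTX cells and 4 with a more positive difference. HIST1H1B reversed in DMSO, to 0.10 without the second sgLuc DMSO library (0.1022) and without both (0.1039), and was -4.81 without the first. With no filter beside 1 count 25 members were lower in sgLuc cells, 5 higher in sgUTX cells and 25 more positive in the difference. With guides averaged in 6 groups 19 were lower in sgLuc cells and 2 higher in sgUTX cells. DESeq2 gave 3 higher in sgUTX cells and 16 more positive. With the replicate number as a block 2 members were higher in sgUTX cells and 1 differed between guides with SGC0946. Differences between replicates 1 and 2, correlated over genes between groups, gave values between -0.127 and 0.0647. Same-numbered libraries thus showed little common shift, which does not settle whether they were paired, since the labels do not say. With library size only, the median of all genes moved to 0.27 in DMSO, and counts of members stayed within 1.5 times. The cause of these shifts was not tested. Depth limits the 23 members under 100 counts, for which a missing call is no sign of equal levels.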
